A study of Mus musculus with 4 samples.

Results

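The ATF4 amino acid stress genes followed here were 10 genes of the integrated stress response and of serine and one-carbon metabolism (Atf4, Ddit3, Trib3, Asns, Chac1, Phgdh, Psat1, Shmt2, Mthfd2 and Sesn2). They were taken by symbol from the deposited table of mouse retina, which held 43280 genes, and all 10 were found. None of the 10 differed between diabetic and control retina past the threshold, nor did any of the 18127 genes tested with limma. Atf4 itself stood at almost the same level in both groups. Asns, Trib3 and Sesn2 read lower in both diabetic libraries than in both controls, a pattern found in 14.3% of tested genes. Phgdh was far higher in a single diabetic library, in which lens genes took 7.95% of the reads.

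The RNA came from freshly dissected whole retina of wildtype mice, of a strain the labels write as C6/BL6J, collected at 18 weeks of age. Diabetic mice, called STZ here, had received streptozotocin, a toxin of pancreatic beta cells, by injection into the abdomen at 50 mg/kg on 5 consecutive days from 6 weeks of age, and hyperglycaemia above 25 mM was checked 10 days later. Control mice had received citrate buffer instead. There were 2 libraries in each group, and the tags 2L and 4R of the table's columns serve here to name them. The columns tagged 4R name their group but no single sample, since the labels give 4L there, and the columns carry a tag of 8W that differs from the age in the protocols. Whether the libraries came from different animals is not stated in the labels, so every p-value measures the spread between these libraries, which may be technical.

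In the integrated stress response, kinases that sense amino acid shortage, misfolded protein, haem shortage or viral RNA phosphorylate the initiation factor eIF2. Most translation then slows while that of ATF4, a bZIP transcription factor, rises, so that its activity is set largely by translation and is only partly visible in Atf4 mRNA. ATF4 induces genes for amino acid synthesis, uptake and tRNA charging, and its targets are the usual mRNA readout of the response. In retina, serine made from glucose by Müller glia is a known supply for photoreceptors, and the enzymes of that route are among the targets.

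ATF4 pairs with C/EBP proteins on a composite element whose core is TGATGNAA. That word, or its reverse complement TTNCATCA, was searched on both strands of RefSeq promoter windows (GRCm38.p6) reaching from 250 bases before to 50 bases after each start. All 10 genes had a window, 11 in all, and 3 of the 11 windows held a match, in Chac1, Trib3 and Asns, against 3.97% of all 32851 windows. The 10 were chosen as genes of this response, so these shares do not test enrichment. The 3 matches are shown because these target genes carry the word that the factor is known to read. Capitals mark the match, and each sequence is written 5′ to 3′ on the gene's own strand.
Chac1: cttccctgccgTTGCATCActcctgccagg
Trib3: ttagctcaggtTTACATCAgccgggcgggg
Asns: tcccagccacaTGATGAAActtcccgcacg
The Chac1 stretch lies at chr2:119351038-119351067 on the plus strand, with the match from base -193 to base -186 of the RefSeq start. That of Trib3 lies at chr2:152344028-152344057 on the minus strand, with the match 14 to 21 bases past the RefSeq start. The plan was to print only matches upstream of the start, so by RefSeq the Trib3 match departs from it. The Asns stretch lies at chr6:7693214-7693243 on the minus strand, with the match from base -23 to base -16, the TGATGAAA known as the core of the nutrient-sensing element of asparagine synthetase. GENCODE M21 places the Asns start upstream of this match and the Trib3 start downstream of it. A match is a description of letters, not a site of binding.

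The libraries held between 29352330 reads (control 2L) and 39299653 reads (STZ 4R) assigned to genes. Rod photoreceptor markers took 8.06% to 11.3% of these reads and Müller glia markers 0.491% to 0.508%. Of the libraries, STZ 2L stood apart most in its lens genes and control 2L in markers of neighbouring tissue and blood. STZ 2L also had the lowest rod share, and its 5 endothelial markers summed to 6601 normalized counts, against 7295 to 9110 elsewhere. Its 6 microglia and macrophage markers summed to 872, against 1001 to 1072 elsewhere. The 14 lens genes made up 7.95% of STZ 2L reads and 0.00185% to 0.0156% in the other 3 libraries. Cornea and conjunctiva genes moved with the group, since all 11 listed markers read higher in each STZ library than in either control, at a summed level of 902 to 1889 normalized counts in controls against 11697 to 12024 in STZ. In control 2L the 8 pigment epithelium and melanocyte markers summed to 1378 normalized counts, against 4348 to 8072 in the other libraries, and the 5 red blood cell genes to 5502, against 1850 to 2971. The part of these tissues in the results was not tested. Over 18127 genes tested with limma on log2(normalized counts + 1), 0 were called higher (0% of those tested) and 0 lower (0%) at a Benjamini-Hochberg adjusted p under 0.05. Without adjustment, 419 genes (2.31%) stood higher and 81 (0.447%) lower at a limma p under 0.05. edgeR's quasi-likelihood test on recovered reads called 0 genes and DESeq2 called 52 higher and 0 lower. The authors' deposited table called 52 higher (0.281%) and 0 lower. Its log2 fold changes of the 10 members equal those of DESeq2 here, so it is not a separate result from DESeq2. Of the 10 members, 0 were called by any of these. With 2 libraries against 2, an exact permutation test of a single gene cannot give a two-sided p under 0.333.

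Against that background of 0%, 0 of the 10 ATF4 genes were called in either direction, all with a limma adjusted p of 0.999, and 0 had an unadjusted p under 0.05, where 2.76% of all tested genes did. All 10 passed the filter on low values. Of the 10, 7 had a lower mean log2 value in STZ, where 51.1% of tested genes did, and the median log2 fold change was -0.12 against -0.01 over all genes tested. In 3 genes both STZ libraries lay below both controls, a pattern found in 14.3% of tested genes, and in 0 did both lie above. Groups without overlap, in either direction, made up 28.7% of tested genes. Whole retina was measured, so fewer cells of a type and less RNA per cell cannot be told apart.

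**Figure D1:**
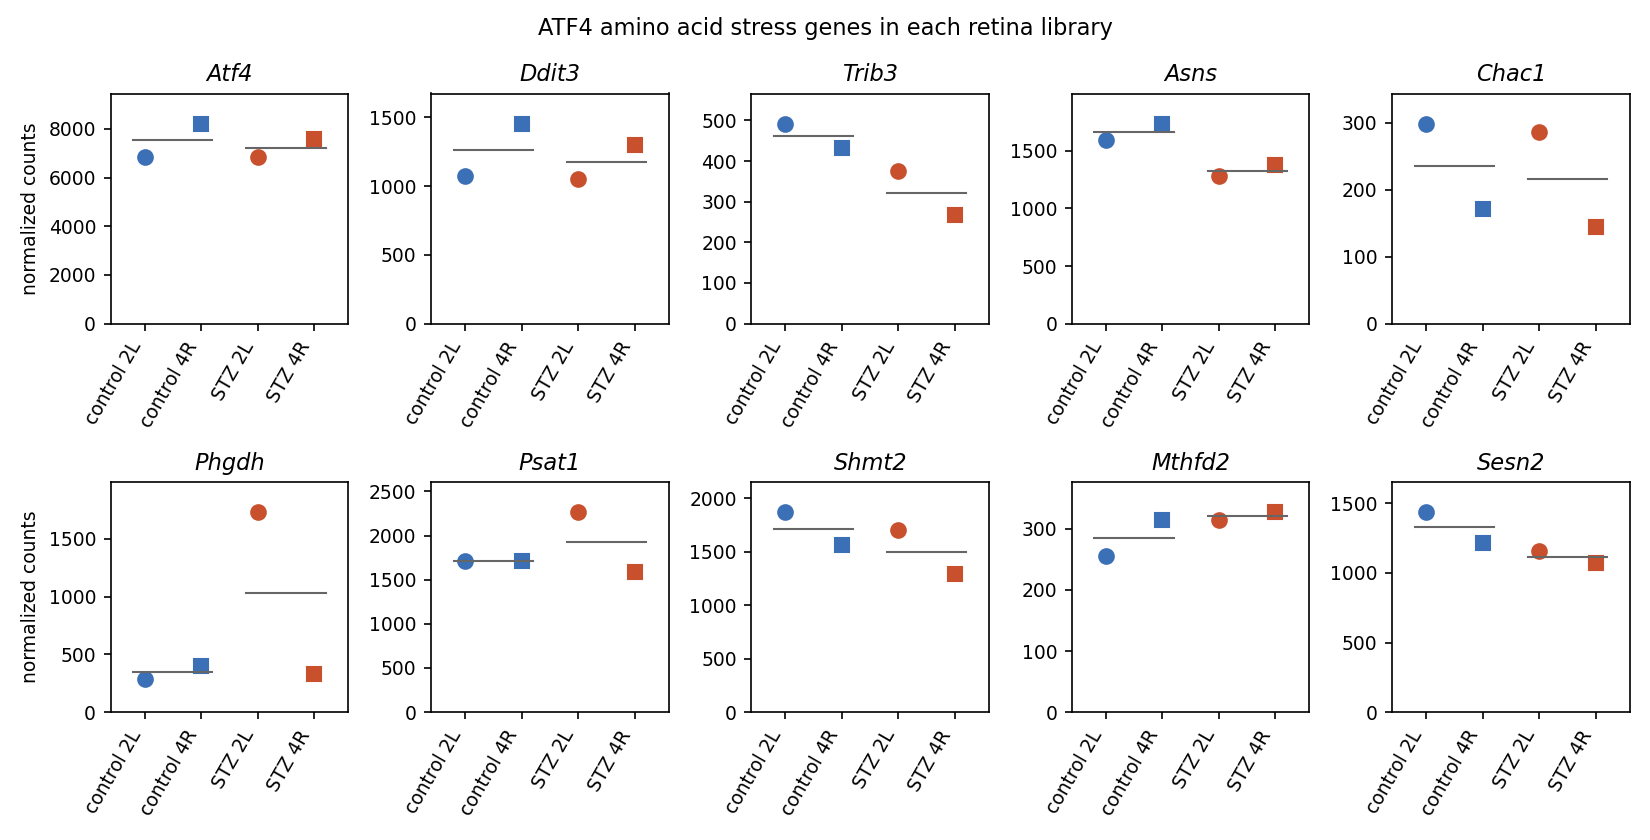
Normalized counts of the 10 ATF4 amino acid stress genes in each of the 4 retina libraries (blue control, red STZ; circles 2L, squares 4R), with a grey line at each group's mean and each vertical axis starting at 0. Asns, Trib3 and Sesn2 have both STZ libraries below both controls, Phgdh has STZ 2L at 1731 against at most 400.3 elsewhere, and Chac1 sits higher in 2L than in 4R in both groups.

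Atf4, the transcription factor at the centre of the response (chromosome 15, 80255184 to 80257541, plus strand, mm10), read 6828 and 8221 normalized counts in control 2L and 4R, and 6861 and 7586 in STZ 2L and 4R. Both STZ values lay within the range of the controls. The group means were 7524 ± 985 and 7223 ± 513 (SD, n = 2), and the log2 fold change was -0.05 ± 0.17 (SE), with a 95% interval of -0.43 to 0.32. On this interval a rise of Atf4 mRNA above 1.25-fold, or a fall below 0.740 of control, is not covered. The sign was not stable: it became 0.08 without control 4R and 0.02 without STZ 2L.

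Ddit3 encodes CHOP, the C/EBP-family factor that acts downstream of ATF4 in prolonged stress (chromosome 10, 127290774 to 127296288, plus strand). It read 1074 and 1454 normalized counts in control 2L and 4R, and 1054 and 1297 in STZ 2L and 4R. As with Atf4, the 4R library was the higher one in each group and the groups overlapped. The log2 fold change was -0.10 ± 0.21 (limma, adjusted p = 0.999), and 0.12 without control 4R or 0.05 without STZ 2L. Ddit3 overlaps Mars, the methionyl-tRNA synthetase gene, on the opposite strand, and since the strand setting of the counting is not given in the sources used here their reads cannot be told apart. Mars read 2894 and 3351 in controls and 2829 and 2832 in STZ.

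Trib3, a pseudokinase induced by ATF4 and CHOP that dampens ATF4 activity in return (chromosome 2, 152337422 to 152344032, minus strand), had the lowest log2 fold change of the 10. It read 492 and 432 normalized counts in control 2L and 4R, against 375 and 268 in STZ 2L and 4R. Both STZ libraries lay below both controls, which by itself places STZ lower within each tag. The differences were -0.39 on the log2 scale in 2L and -0.69 in 4R. The group means of 462 ± 43.1 and 321 ± 75.4 (SD, n = 2) gave a log2 fold change of -0.54 ± 0.24 (SE), a percent difference of -31.2. Its 95% interval, -1.10 to 0.02, included no difference (limma, unadjusted p = 0.0579, adjusted p = 0.999). The log2 fold change was -0.78 without STZ 2L and -0.30 without STZ 4R. In the authors' deposited table the log2 fold change was -0.53 with an adjusted p of 0.9997.

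Asns, which makes asparagine from aspartate and glutamine and is the classical amino acid response target, carries the TGATGAAA core printed above (chromosome 6, 7675169 to 7693254, minus strand). Its values were 1594 and 1737 normalized counts in control 2L and 4R, and 1284 and 1373 in STZ 2L and 4R. The groups were separate, and the gap between them exceeded the spread within either. Means of 1666 ± 101 and 1328 ± 62.7 (SD, n = 2) gave a log2 fold change of -0.33 ± 0.16 (SE), with a 95% interval of -0.70 to 0.04 (limma, unadjusted p = 0.0771, adjusted p = 0.999). The difference was nearly equal within the tags, at -0.31 in 2L and -0.34 in 4R, and ranged from -0.39 to -0.26 when each library was left out in turn. With separate groups, the sign of each of these values was fixed in advance.

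Sesn2, a leucine-binding stress protein that restrains mTORC1 and is a target of both ATF4 and p53 (chromosome 4, 132492032 to 132510501, minus strand), followed the same order. It read 1437 and 1217 normalized counts in controls 2L and 4R, and 1157 and 1068 in STZ 2L and 4R. The lower control and the higher STZ library were close, so the groups were only just separate. The log2 fold change was -0.25 ± 0.17 (limma, unadjusted p = 0.188, adjusted p = 0.999). Leaving out each library in turn gave values from -0.37 to -0.13, the latter without control 2L. Beside Trib3, Asns and Sesn2, the cornea and conjunctiva markers differed between the same groups in the opposite direction, and their part in these differences was not tested. With the lens-rich library STZ 2L left out, Asns stood at -0.28 and Sesn2 at -0.31, a sign that their separate groups fix in advance. The part of lens tissue in these values was not tested.

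**Figure D2:**
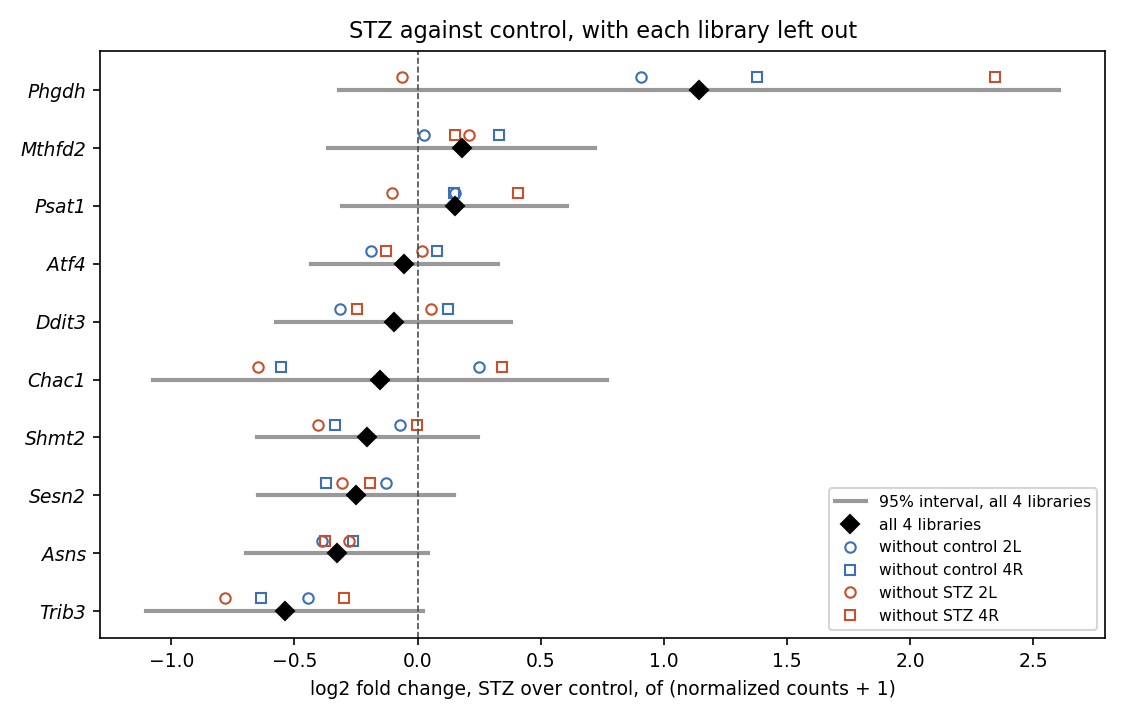
Log2 fold change of each gene, STZ over control, with all 4 libraries (diamond, grey bar the 95% limma interval) and with each library left out in turn (open symbols). Every interval includes 0. Trib3, Asns and Sesn2 stay below 0 in each of the 4 omissions, which their separate groups fix in advance. Shmt2 also stays below 0, at -0.0019 without STZ 4R, and Mthfd2 stays above 0, at 0.03 to 0.33. Phgdh runs from -0.06 without STZ 2L to 2.34 without STZ 4R.

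Chac1, an enzyme that breaks down glutathione in the cytosol and is among the most ATF4-dependent transcripts in cultured cells (chromosome 2, 119351229 to 119354381, plus strand), split by tag rather than by group. The 2L libraries read 299 normalized counts in control and 287 in STZ, and the 4R libraries 171 and 144. The 2L library exceeded the 4R library by 0.80 on the log2 scale in controls and by 0.99 in STZ, whereas STZ differed from control by -0.06 within 2L and -0.25 within 4R. At 174 to 272 recovered reads in control 2L and the STZ libraries, counting error was at most 7.58% of a value there. The log2 fold change between groups was -0.15 ± 0.40 (limma, adjusted p = 0.999), and it became 0.25 without control 2L and 0.34 without STZ 4R, against -0.55 without control 4R and -0.65 without STZ 2L. Of the 10 genes, 6 had a mean difference between 2L and 4R larger than that between STZ and control, as did 57.2% of all genes tested.

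Phgdh catalyses the first step of serine synthesis from the glycolytic intermediate 3-phosphoglycerate (chromosome 3, 98313170 to 98339990, minus strand). It read 289 and 400.3 normalized counts in control 2L and 4R, and 1731 and 326 in STZ 2L and 4R. STZ 2L stood 4.33 times above the highest of the other libraries, and STZ 4R lay between the controls. Only 137 of the 18127 tested genes (0.756%) had STZ 2L as far above the others. The log2 fold change of 1.14 ± 0.64 (limma, adjusted p = 0.999) was the largest of the 10 and rested on that library. It was -0.06 without STZ 2L and 2.34 without STZ 4R, each a fit with a lone STZ library that has no spread of its own. With all libraries the value depended on the method. On recovered reads edgeR gave 1.57 (unadjusted p = 0.036, adjusted p = 0.9995) and DESeq2 1.58 (unadjusted p = 0.143, adjusted p = 0.9997). Robust moderation of the limma fit widened the SE to 1.13 (unadjusted p = 0.404). The 14 lens genes made up 7.95% of the reads of STZ 2L. The part of lens tissue in the Phgdh value was not tested.

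Psat1, the aminotransferase of the next step (chromosome 19, 15904678 to 15947337, minus strand), was also highest in STZ 2L, by a smaller margin. It read 1712 and 1707 normalized counts in controls, 2266 in STZ 2L and 1589 in STZ 4R. STZ 2L was 1.32 times the highest other library, a ratio reached by 9.52% of tested genes, while the controls were almost identical. The log2 fold change was 0.15 ± 0.20 (limma, adjusted p = 0.999) and -0.10 without STZ 2L. Psph, the phosphatase that completes serine synthesis, is not one of the 10 and was added after its values were seen. It read 782 and 970 in controls and 805 and 727 in STZ 2L and 4R, so STZ 2L did not stand out for the last enzyme of the route.

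Shmt2 and Mthfd2 act in mitochondria, where serine is turned into glycine and its carbon is passed to folate. Shmt2, the serine hydroxymethyltransferase (chromosome 10, 127517123 to 127522444, minus strand), read 1873 and 1562 normalized counts in controls and 1708 and 1291 in STZ 2L and 4R. STZ was lower within each tag, by -0.13 in 2L and -0.27 in 4R, but the groups overlapped and the log2 fold change was -0.20 ± 0.20 (limma, adjusted p = 0.999). It was -0.41 without STZ 2L, -0.33 without control 4R, -0.07 without control 2L and -0.0019 without STZ 4R. Mthfd2, the methylene-tetrahydrofolate dehydrogenase (chromosome 6, 83305691 to 83325908, minus strand), read 255 and 315 in controls and 314 and 327 in STZ. Its log2 fold change was 0.18 ± 0.24 (limma, adjusted p = 0.999), and 3 of its 4 libraries lay within 314 to 327, with control 2L below them. Without control 2L the log2 fold change was 0.03, and without control 4R it was 0.33. Shmt2 overlaps Ndufa4l2 on the opposite strand, a gene that read between 31.4 and 209.

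**Figure D3:**
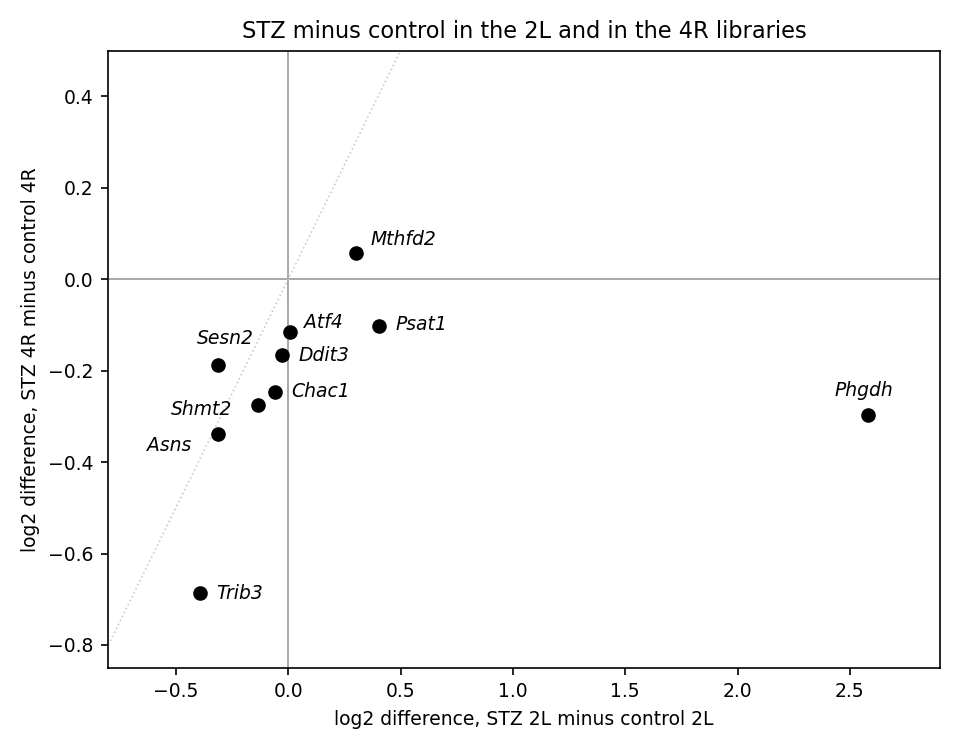
Log2 difference between STZ and control within the 2L libraries (horizontal axis) and within the 4R libraries (vertical axis) for each of the 10 genes, with the dotted line marking equal differences. All genes but Mthfd2 lie below 0 on the vertical axis, Trib3 is lowest at -0.39 and -0.69, and Phgdh lies at 2.58 in 2L and -0.30 in 4R.

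Read within the tags, 6 of the 10 genes were lower in STZ in both 2L and 4R (Ddit3, Trib3, Asns, Chac1, Shmt2 and Sesn2), a pattern found in 26.1% of tested genes. For Trib3, Asns and Sesn2 it follows from their separate groups and is not a further result. The labels do not tie equal tags to one animal, so the tags are not known to be pairs. Mthfd2 alone was higher in both, as were 24.0% of tested genes. Atf4, Phgdh and Psat1 had opposite signs in the 2 tags, in each case higher in 2L. Measured from the mean of the controls, the median log2 deviation of the 10 genes was -0.06 for STZ 2L and -0.19 for STZ 4R, with the controls at -0.03 for 2L and 0.03 for 4R. That of all genes tested was -0.01 for STZ 2L and 0.01 for STZ 4R.

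Per kilobase of coding-transcript exon (GENCODE M21), which allows levels of different genes to be compared, Atf4 was the most abundant, at a mean of 4275 normalized counts per kb and a range of 3958 to 4766 over the 4 libraries. Ddit3 followed at 1370 (1184 to 1634), its range separate from that of Atf4 and from that of the next gene. Shmt2 (698), Asns (692) and Psat1 (619) formed a group whose ranges overlapped. Phgdh averaged 363 with the widest range, 153 to 915, since its level in STZ 2L exceeded that of every other enzyme in the list, and Sesn2 stood at 351 (307 to 414). Trib3 (193), Mthfd2 (145) and Chac1 (138) were lowest, with overlapping ranges. The authors' annotation release is not given in the sources used here, so these lengths are approximate.

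The 3 genes whose pattern over the 4 libraries was closest to that of Atf4, by Euclidean distance of centred log2 values among 13233 other genes with a mean of at least 100, were Nmt1 (distance 0.020), Nelfb (0.023) and Sept6 (0.024). Among the other members Ddit3 was nearest, at 0.167, ranking 1154, and Phgdh farthest, at 2.17, ranking 13081.

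Upstream of ATF4, 0 of 17 tested genes of the eIF2 kinases and eIF2 cycle were called in either direction, and the median log2 fold change was 0.03, between -0.04 and 0.09 when each library was left out. Eif2ak2, the kinase PKR that senses double-stranded RNA, read 63.7 and 78.5 normalized counts in controls and 148 and 126 in STZ 2L and 4R, a log2 fold change of 0.94 ± 0.33 (limma, unadjusted p = 0.0218, adjusted p = 0.999). It was the 1 gene of this list with an unadjusted p under 0.05. Eif2b2, a subunit of the exchange factor that recharges eIF2, stood at -0.41 ± 0.18, and Eif2s1, the eIF2 subunit that is phosphorylated, at 0.45 ± 0.21, each with separate groups. Without STZ 2L they stood at -0.25 and 0.27. Among bZIP partners and relatives 0 of 10 tested genes were called, and the median was 0.13, or 0.06 without STZ 2L and 0.21 without control 4R. Nupr1, a stress-induced chromatin protein, read 247 and 284 in controls, 255 in STZ 4R and 2814 in STZ 2L, so its log2 fold change was 1.68 with all libraries and -0.05 without STZ 2L. Cebpb, a C/EBP partner of ATF4, was likewise high in STZ 2L alone, at 158 against at most 77.3, while Jun stood at -0.24 ± 0.15.

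Of 20 other ATF4 stress targets tested, 14 stood lower, where 51.1% of all tested genes did, and 0 were called. Several of these targets, such as Nupr1, Slc7a11 and Cth, also stand in other lists and count in each. In 6 both STZ libraries lay below both controls, against 14.3% of all tested genes, and in 1 above. The median was -0.10, or -0.21 without STZ 2L, -0.16 without control 4R, -0.03 without control 2L and -0.0055 without STZ 4R. Slc7a11, the cystine importer, read 116 and 124 normalized counts in controls, 485 in STZ 2L and 176 in STZ 4R, a log2 fold change of 1.28 ± 0.44 that was 0.55 without STZ 2L. Stc2, a secreted glycoprotein, went the other way, at 131 and 119 in controls against 72.8 and 67.0 in STZ (-0.83 ± 0.33; limma, unadjusted p = 0.0348, adjusted p = 0.999). It was -0.89 without STZ 2L. Adm2, a peptide hormone gene, was low throughout, at 34.1 and 14.1 in controls and 1.06 and 9.10 in STZ. Fgf21, a hormone induced by ATF4 in liver, had 0 reads in every library, which allows up to 3 reads in each.

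Of the 12 tested amino acid transporters, 6 stood higher and 6 lower, with a median of 0.02 (-0.03 to 0.09 when each library was left out) and 0 called. Slc7a3, a carrier of cationic amino acids, read 140 and 136 normalized counts in controls and 48.5 and 90.1 in STZ (-1.05 ± 0.39; limma, unadjusted p = 0.0267, adjusted p = 0.999), and -0.61 without STZ 2L. Slc3a2, the heavy chain shared by Slc7a5 and Slc7a11, stood at 0.19 ± 0.17, and at 0.02 without STZ 2L. The 20 cytosolic aminoacyl-tRNA synthetases, many of them ATF4 targets, spanned -0.24 to 0.11, with 12 lower and 0 called. In 5 both STZ libraries lay below both controls, against 14.3% of all tested genes, and in 1 above. The median was -0.05 and changed sign with the libraries used, at 0.05 without STZ 2L or control 4R, -0.14 without STZ 4R and -0.10 without control 2L. Wars read 4712 and 4897 in controls and 4106 and 4082 in STZ (-0.23 ± 0.15), Farsa stood at -0.24 ± 0.17 (-0.08 without control 2L) and Yars at -0.20 ± 0.15.

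In the rest of serine, glycine and folate metabolism 0 of 24 tested genes were called, 13 stood lower, and the median was -0.07, between -0.06 and 0.03 when each library was left out. Gldc, which breaks down glycine in mitochondria, read 1133 and 1578 normalized counts in controls and 2127 and 1827 in STZ, a log2 fold change of 0.56 ± 0.20 (limma, unadjusted p = 0.0238, adjusted p = 0.999) that was 0.32 without control 2L and 0.45 without STZ 2L. Shmt1, the cytosolic counterpart of Shmt2, read 5.69 and 38.2 in controls and 79.1 and 29.8 in STZ, with overlapping groups. Pycrl, an enzyme of proline synthesis, stood at -0.33 ± 0.18. Among genes of glutathione metabolism around Chac1, 0 of 9 were called and the median was 0.20, or 0.34 without control 4R, 0.08 without STZ 2L and 0.06 without control 2L. Ggt1, the surface enzyme that starts extracellular glutathione breakdown, read 46.6 and 78.5 in controls and 199 and 117 in STZ (1.32 ± 0.41; limma, unadjusted p = 0.0123, adjusted p = 0.999), and 0.95 without STZ 2L. Gss, glutathione synthetase, was high in STZ 2L alone, at 2725 against at most 667, and Ggt7 stood at -0.29 ± 0.17, or -0.16 without control 2L or STZ 4R.

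The arms of endoplasmic reticulum stress that run through ATF6 and XBP1 showed 0 of 18 genes called, 13 higher, and a median of 0.03 within a span of -0.15 to 0.34. Hspa5, the luminal chaperone BiP and the usual marker of these arms, read 7143 and 6887 normalized counts in controls, 9071 in STZ 2L and 7171 in STZ 4R, a log2 fold change of 0.20 ± 0.17 that was 0.03 without STZ 2L. Dnajc3, an inhibitor of eIF2 kinases, stood at 0.34 ± 0.17 and Creld2, another protein of that compartment, at 0.20 ± 0.19 (0.08 without control 2L). Of 20 genes of sestrin and amino acid sensing to mTORC1, 13 stood lower and 0 were called. In 6 both STZ libraries lay below both controls and in 2 above, against 14.3% of all tested genes each. The median was -0.06, between -0.15 and 0.01 when each library was left out. Sesn3, a paralogue of Sesn2, was in the opposite order to it, at 1088 and 1101 in controls against 1592 and 1314 in STZ (0.40 ± 0.17; limma, unadjusted p = 0.0494, adjusted p = 0.999), and 0.26 without STZ 2L. Flcn, folliculin, stood at -0.24 ± 0.15, and Gatsl3, the arginine sensor CASTOR1, was high in STZ 2L alone, at 444 against at most 167.

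**Figure D4:**
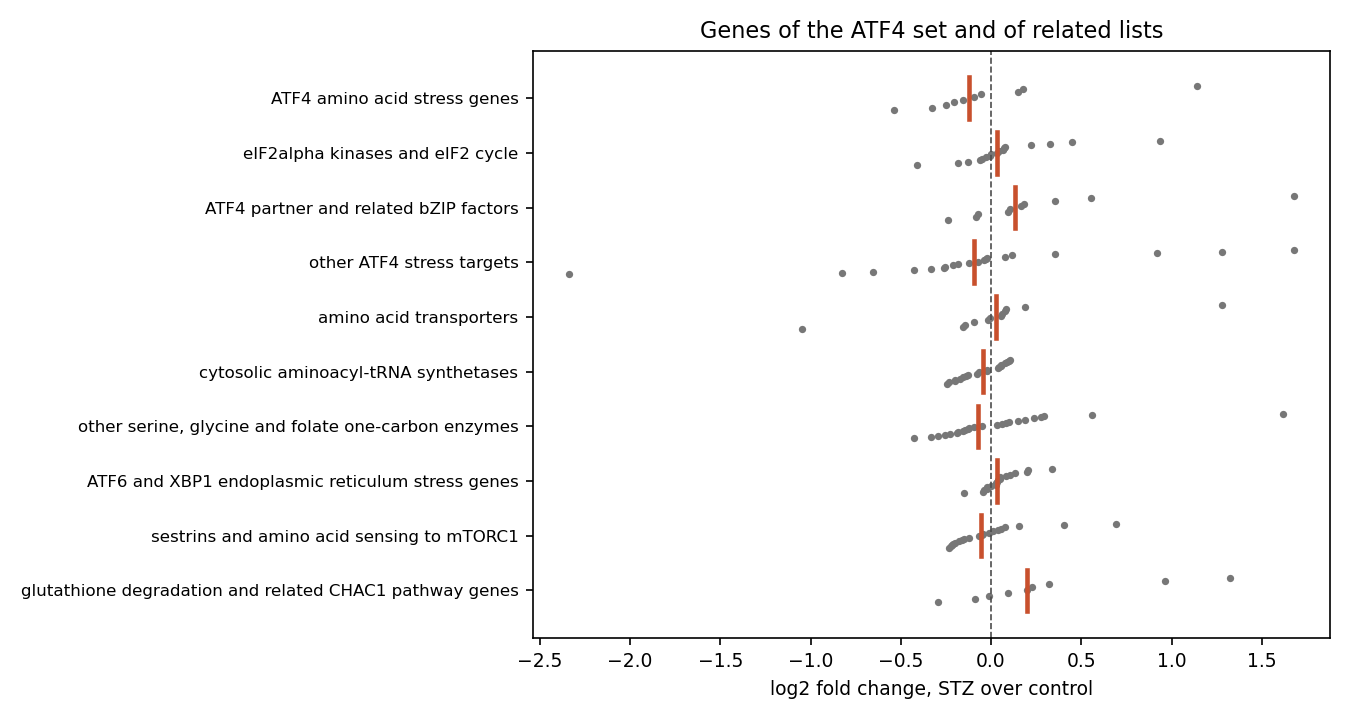
Log2 fold change, STZ over control, of each tested gene (grey points) in the ATF4 set and in 9 related lists, with a red bar at each list's median; vertical spread within a row only separates points. Medians lie between -0.12 for the ATF4 set and 0.20 for glutathione genes, and tRNA synthetases form the narrowest row. Some of the related lists share genes, which are drawn in each of their rows.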

How the data were processed

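Messenger RNA of dissected retina was made into Ion Torrent libraries and analysed with Torrent Suite 5.4.0, per the labels' protocols. These name STAR for alignment to mm10, Bowtie2 for the reads STAR left unmapped, and HTSeq and Picard for gene counts, as do the submitters' processing notes. The authors deposited a signal per gene, its reads scaled by a size factor of the library, and their own comparison as a log2 fold change, its standard error and test score, and p-values. The sources used here do not name the tool of that comparison, the annotation or the strand setting. The members' log2 fold changes in it equal those of DESeq2 on recovered reads.

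All values were whole multiples of 1 step per library, within 0.01 reads (100% in each), which gave the reads. For control 4R the step lay near 1, so recovery was not claimed there and count tests are alternatives only. The table held normalized values, so limma 3.58.1 (R 4.3.3) was the main test, run over 18127 genes with a value of 10 or more in at least 2 libraries. It used log2(value + 1), a trend in the prior variance, all 4 libraries, treatment as the only term, two-sided tests and Benjamini-Hochberg adjustment. On that scale changes of low genes are understated. edgeR 4.0.16 and DESeq2 1.42.0 were run on recovered reads. The fit was tested on simulated data.

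The members, lists and tests were chosen with earlier results of these data known. Named were all members, the 3 genes of smallest p in each list and the 3 genes nearest to Atf4. Outside that rule stand Psph, Fgf21, and Mars and Ndufa4l2, which overlap members. Of 18 genes listed for the eIF2 cycle, 17 matched a symbol. Some lists share genes, and a shared gene counted in each of its lists.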

Additional observations from a re-analysis of the deposited data

How the results depend on the processing

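Of 140 refits of a member (14 alternatives for each of 10 genes), 131 kept direction and stayed on the same side of the threshold, 8 changed sign and 1 passed. All 9 exceptions came from leaving out 1 library, and the 1 past the threshold was Phgdh in a fit with a lone STZ library. Over those omissions the log2 fold change ran from -0.19 to 0.079 for Atf4, -0.31 to 0.12 for Ddit3, -0.78 to -0.30 for Trib3, -0.39 to -0.26 for Asns, -0.65 to 0.34 for Chac1, -0.061 to 2.34 for Phgdh, -0.10 to 0.41 for Psat1, -0.41 to -0.0019 for Shmt2, 0.03 to 0.33 for Mthfd2 and -0.37 to -0.13 for Sesn2. The sign changes were 0.079 for Atf4 and 0.12 for Ddit3 without control 4R, 0.02 for Atf4, 0.05 for Ddit3, -0.061 for Phgdh and -0.10 for Psat1 without STZ 2L, 0.25 for Chac1 without control 2L, and 0.34 for Chac1 without STZ 4R. The count of genes called higher, 0 in limma, was 13 with no filter on low values, 3 with robust moderation and 52 with DESeq2, and the cause was not tested. It was 11 to 572 with a library left out, and that of genes called lower 0 to 39, fits that take the spread of a lone library from the group that keeps both. With the column tag as a replicate block limma called 0 genes (smallest adjusted p = 0.0557), and Trib3 stood at an unadjusted p of 0.0355 and an adjusted p of 0.986. The labels do not tie equal tags to one animal, and over 18127 genes the 2L against 4R differences of the 2 groups correlated at 0.099. Scaling by TMM and quantile normalization changed no member's sign. Depth limits Chac1 most, with 174 reads in the lowest of the 3 libraries whose reads were recovered.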
